A study of Mus musculus with 2 samples.

Results

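The genes of dead-cell clearance (efferocytosis) were followed in single-cell transcriptomes of the mouse colon lamina propria. The 8 genes were chosen by symbol from the 31053 features, and all 8 were found in both libraries. They encode 5 receptors (Mertk, Axl, Stab1, Timd4 and Cd93) and 3 secreted bridging proteins (Gas6, Pros1 and Mfge8). One library came from wild-type animals (WT), the other from animals labelled as a LncRNA17Rik knockout (KO). The study names its knocked-out long non-coding RNA lncLy6c, and that both names mean 1 gene was inferred from the matching design. The lncLy6c KO mice were on a C57BL/6J background and were made by CRISPR-Cas9 editing of fertilised eggs. Both libraries came from the colon of 8-week-old male mice whose cells were pooled, and the labels name no treatment. The labels describe the cells as cd11b+, the surface protein encoded by Itgam. No feature is called LncRNA17Rik or lncLy6c, so the deletion was not checked here.

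Efferocytosis is the uptake of apoptotic cells by phagocytes, which recognise phosphatidylserine on the dying cell. Mertk and Axl are receptor tyrosine kinases of the TAM family. They do not bind the dying cell directly, but through the vitamin K-dependent proteins encoded by Gas6 and Pros1. Gas6 protein is a ligand of both receptors, and protein S, the Pros1 product, acts on Mertk. Mfge8 encodes a bridging protein that ties phosphatidylserine to alpha v integrins. Timd4 (Tim-4) and Stab1 (stabilin-1) encode receptors that bind phosphatidylserine themselves, and Cd93 encodes a C-type lectin-like surface protein linked to the clearance of dying cells and to endothelial adhesion. In the gut, resident macrophages take up dying epithelial cells and arise in adult mice largely from monocytes.

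All 8 are protein-coding genes in the GENCODE M21 annotation of GRCm38. Mertk lies on chromosome 2 from 128698956 to 128802894 on the plus strand, and Axl on chromosome 7 from 25757273 to 25788705 on the minus strand. Gas6 lies on chromosome 8 from 13465374 to 13494490 and Mfge8 on chromosome 7 from 79133768 to 79149060, both on the minus strand. Stab1 (chromosome 14, 31139013 to 31168641) and Cd93 (chromosome 2, 148436640 to 148443563) are also on the minus strand. Pros1 (chromosome 16, 62854307 to 62929346) and Timd4 (chromosome 11, 46810800 to 46844332) are on the plus strand. No exon of another gene on the same strand overlapped an exon of any of the 8.

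The 250 bases before the transcription start are shown for Axl, Mertk and Gas6, the genes whose levels differed most between the libraries in macrophages or monocytes, and for Mfge8, the only matched gene with a RUNX core. They are RefSeq sequences of GRCm38.p6, 5' to 3' on the strand of the gene. Capitals mark GC boxes (GGGCGG or CCGCCC) and, in Mfge8, 1 RUNX core (TGTGGT).
Axl, chr7:25788734-25788983, minus strand: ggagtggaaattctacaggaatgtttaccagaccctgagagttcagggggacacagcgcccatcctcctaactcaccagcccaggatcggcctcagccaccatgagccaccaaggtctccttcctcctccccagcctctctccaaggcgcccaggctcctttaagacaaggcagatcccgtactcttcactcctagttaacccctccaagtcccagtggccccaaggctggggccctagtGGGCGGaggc
Mertk, chr2:128698665-128698914, plus strand: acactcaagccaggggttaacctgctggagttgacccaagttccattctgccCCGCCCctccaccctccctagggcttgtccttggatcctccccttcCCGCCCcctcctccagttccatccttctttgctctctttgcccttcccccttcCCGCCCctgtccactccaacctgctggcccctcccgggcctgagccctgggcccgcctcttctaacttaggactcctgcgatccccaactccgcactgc
Gas6, chr8:13494536-13494785, minus strand: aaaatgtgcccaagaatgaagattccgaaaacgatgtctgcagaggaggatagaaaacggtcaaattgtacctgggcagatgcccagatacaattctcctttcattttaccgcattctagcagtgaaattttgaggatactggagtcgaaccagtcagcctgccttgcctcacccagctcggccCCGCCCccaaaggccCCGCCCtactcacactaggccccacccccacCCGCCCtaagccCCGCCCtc
Mfge8, chr7:79149061-79149310, minus strand: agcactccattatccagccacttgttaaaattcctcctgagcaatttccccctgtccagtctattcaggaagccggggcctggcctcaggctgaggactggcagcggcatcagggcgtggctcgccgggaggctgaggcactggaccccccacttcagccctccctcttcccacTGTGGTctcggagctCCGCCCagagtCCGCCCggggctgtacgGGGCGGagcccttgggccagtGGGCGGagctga
Of the 8 genes, 7 had a sequence in the RefSeq table, all but Cd93. GC boxes were found 1 time before Axl, 3 times before Mertk, 4 times before Gas6 and before Mfge8 and 5 times before Pros1, in which 2 of the matches overlap. None was found before Stab1 or Timd4. On either strand, a GC box stood in 32.7% of the 32851 windows of this length. The RUNX core (TGTGGT or ACCACA), a sequence bound by RUNX transcription factors, stood in 14.0% of all windows and before Mfge8 alone among the 7. The NR4A monomer site (AAGGTCA or TGACCTT) and the TATA box (TATAAA or TTTATA) stood in 4.08% and 12.4% of all windows and in none of the 7. A match is only a run of letters and says nothing of binding.

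After the study's filters, 2597 WT and 2514 KO cells remained, with a median of 5073 and 6564.5 UMIs (unique molecular identifiers, 1 per captured RNA molecule) per cell. Of 24 clusters, 2 stayed unnamed, with 14.4% of WT and 4.02% of KO cells. An Itgam UMI was present in 40.0% of WT and 57.8% of KO cells, and in 67.9% and 63.2% of resident macrophage-like cells, so a missing UMI does not show a missing transcript. B, T, plasma, epithelial and fibroblast-like cells were present in both libraries beside the cells that the label names. One barcode sequence was shared by the deposited libraries and none by the cells kept. Levels (CPM) are the UMIs of a gene per 1000000 UMIs, both summed over the cells of a class and library, and shares are percentages of cells with at least 1 UMI. With 1 library per genotype there was no replicate check and no test between genotypes. All 95% intervals (exact Poisson for levels, exact Clopper-Pearson for shares, exact conditional binomial for ratios) cover counting error only, and ratios are log2 KO over WT.

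Resident macrophage-like cells (240 WT and 133 KO) formed 1 cluster led by Mmp13, C1qa, C1qc and Ms4a7, in which C1qa, a complement subunit, had a UMI in 97.9% of WT and 94.7% of KO cells. Inflammatory monocyte-like cells (401 WT and 367 KO) formed 3 clusters. The cluster led by Ly6i and Cxcl9 held 345 WT and 52 KO cells, the cluster led by Chil3 and Ace held 39 WT and 277 KO cells, and a small cluster with Rsad2 and Ccl7 among its leading genes held 17 and 38. Most monocyte-like cells of the 2 libraries were thus in different clusters. An intermediate cluster with equal numbers of raised macrophage and monocyte markers, led by Retnla, Ccl24 and Lpl, held 18 WT and 140 KO cells. The 8 genes were kept out of the clustering and naming, yet Stab1 stood among the top 10 genes of the resident cluster.

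Mertk, the main TAM receptor of tissue macrophages, was highest in resident macrophage-like cells. Its level there was 68.0 CPM in WT (56.6 to 80.9) and 45.5 CPM in KO (34.1 to 59.5). The WT level in fibroblast-like cells, 59.8 CPM, overlapped with that of the macrophages. WT epithelial-like cells followed with 27.1 CPM and inflammatory monocyte-like cells with 9.91 CPM, and these neighbours did not overlap. In KO, the intermediate cluster reached 12.6 CPM, and inflammatory monocyte-like cells 0.945 CPM from 3 UMIs. Mertk was not detected in cDC2-like cells of either library, which at a limit of 3 counts allows up to 1.01 CPM for WT and 0.361 CPM for KO. After every cell was thinned to 2000 UMIs, 12.1% of WT and 10.8% of KO resident macrophage-like cells had a Mertk UMI (30.4% and 26.3% without thinning), against 0 of 163 WT and 0 of 84 KO B cell-like cells.

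Axl, the TAM receptor usually linked to inflammatory and interferon-exposed phagocytes, was present in macrophage, monocyte and cDC2-like classes. It was low in cDC1-like cells, with 8.74 CPM in WT, overlapping with the 9.21 CPM of B cell-like cells, and 16.7 CPM in KO. Among named classes with at least 50 cells its WT order was fibroblast-like (469 CPM), resident macrophage-like (327 CPM), inflammatory monocyte-like (238 CPM) and cDC2-like cells (75.1 CPM), with no overlap between neighbours. Under the same limit its KO order was resident macrophage-like (258 CPM), intermediate (227 CPM), inflammatory monocyte-like (49.1 CPM) and cDC2-like cells (35.3 CPM), in which only the first 2 overlapped. The 21 KO fibroblast-like cells, too few for that order, had 480 CPM (391 to 583). At 2000 UMIs per cell, 31.4% of WT monocyte-like cells (26.8% to 36.3%) and 8.58% of KO monocyte-like cells (5.82% to 12.1%) had an Axl UMI. Without thinning the shares were 54.1% and 20.2%. The shares in resident macrophage-like cells at 2000 UMIs, 44.4% in WT and 37.5% in KO, had overlapping intervals. B cell-like cells, which should lack Axl, gave 1.23% in WT and 0% in KO (0% to 4.30%). Their median depths were 3021 and 4394 UMIs, against 6454 and 9275 in monocyte-like cells.

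Stab1, a scavenger receptor of resident macrophages and sinusoidal endothelium, was highest in resident macrophage-like cells, with 166 CPM in WT (148 to 185) and 234 CPM in KO (207 to 264). Among the other named classes the next level was 26.7 CPM in WT monocyte-like cells and 34.5 CPM in the KO intermediate cluster. Resident macrophage-like cells held 63.0% of all Stab1 UMIs of the WT library and 58.2% of the KO library. At 2000 UMIs per cell, 26.9% of WT and 28.3% of KO resident macrophage-like cells had a Stab1 UMI, against 5.45% and 4.73% of monocyte-like cells and 0.613% and 0% of B cell-like cells.

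Cd93 was more evenly spread over the monocyte and macrophage classes. It stood at 147 CPM for WT and 205 CPM for KO resident macrophage-like cells, and at 93.8 and 94.5 CPM in monocyte-like cells. The intermediate cluster of the KO library had 173 CPM, which overlapped with the resident macrophages. Cd93 is also known from plasma cells, and WT plasma cell-like cells (228 cells) had 65.0 CPM, which overlapped with the 64.0 CPM of WT neutrophil-like cells. At 2000 UMIs per cell, 26.0% of WT and 28.3% of KO resident macrophage-like cells had a Cd93 UMI, and 3.68% and 2.38% of B cell-like cells did.

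Timd4, often used as a marker of long-lived resident macrophages, was highest in dendritic cells here. The WT levels of cDC2-like cells (25.5 CPM) and cDC1-like cells (23.3 CPM) overlapped, and resident macrophage-like cells had 8.63 CPM from 16 UMIs. In KO, cDC1-like cells had 52.0 CPM (45.4 to 59.2), cDC2-like cells 21.7 CPM and resident macrophage-like cells 15.5 CPM from 18 UMIs. The 5 cells with most Timd4 UMIs held 83.3% of the 24 WT and 36.2% of the 224 KO UMIs of cDC1-like cells, and 1 KO cell held 30 UMIs. At 2000 UMIs per cell, the shares of cells with a Timd4 UMI were 5.97% and 7.54% in cDC1-like and 0.897% and 4.17% in resident macrophage-like cells, with overlapping intervals between libraries. No thinned B cell-like cell had a Timd4 UMI in either library.

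Gas6, the ligand of both TAM receptors, was highest outside the immune cells. WT fibroblast-like cells had 518 CPM (452 to 590) and WT epithelial-like cells 317 CPM (295 to 341), and epithelial-like cells held 69.7% of the Gas6 UMIs of the WT library. Among immune cells, resident macrophage-like cells were highest, with 32.4 CPM in WT (24.7 to 41.7) and 97.03 CPM in KO (80.0 to 117). The WT interval overlapped with those of neutrophil-like cells (14.8 CPM from 3 UMIs, 3.04 to 43.1) and eosinophil-like cells (5.72 CPM from 1 UMI). Resident macrophage-like cells held 5.75% of the WT and 42.2% of the KO Gas6 UMIs. These shares also move with the 146 WT and 16 KO epithelial-like cells captured. Fibroblast-like and epithelial-like cells held 25.7% and 13.4% of the KO Gas6 UMIs. Inflammatory monocyte-like cells had 3.43 and 2.52 CPM. At 2000 UMIs per cell, 7.17% of WT and 15.0% of KO resident macrophage-like cells had a Gas6 UMI (4.16% to 11.4% and 9.14% to 22.7%, which overlap), against 0.613% and 0% of B cell-like cells.

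Pros1 and Mfge8 were highest in fibroblast-like cells of the WT library, at 175 CPM and 274 CPM. In resident macrophage-like cells Pros1 stood at 22.1 CPM for WT and 25.8 CPM for KO, and in monocyte-like cells at 16.0 and 21.1 CPM. No Pros1 UMI was found in B cell-like cells of either library. Mfge8 differed between classes in another way, with cDC2-like cells (20.5 CPM for WT and 28.8 CPM for KO) above resident macrophage-like cells (8.63 and 9.45 CPM), without overlap in either library. WT T cell-like cells had 22.7 CPM of Mfge8 from 32 UMIs, a level that overlapped with the cDC2-like cells.

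**Figure D1:**
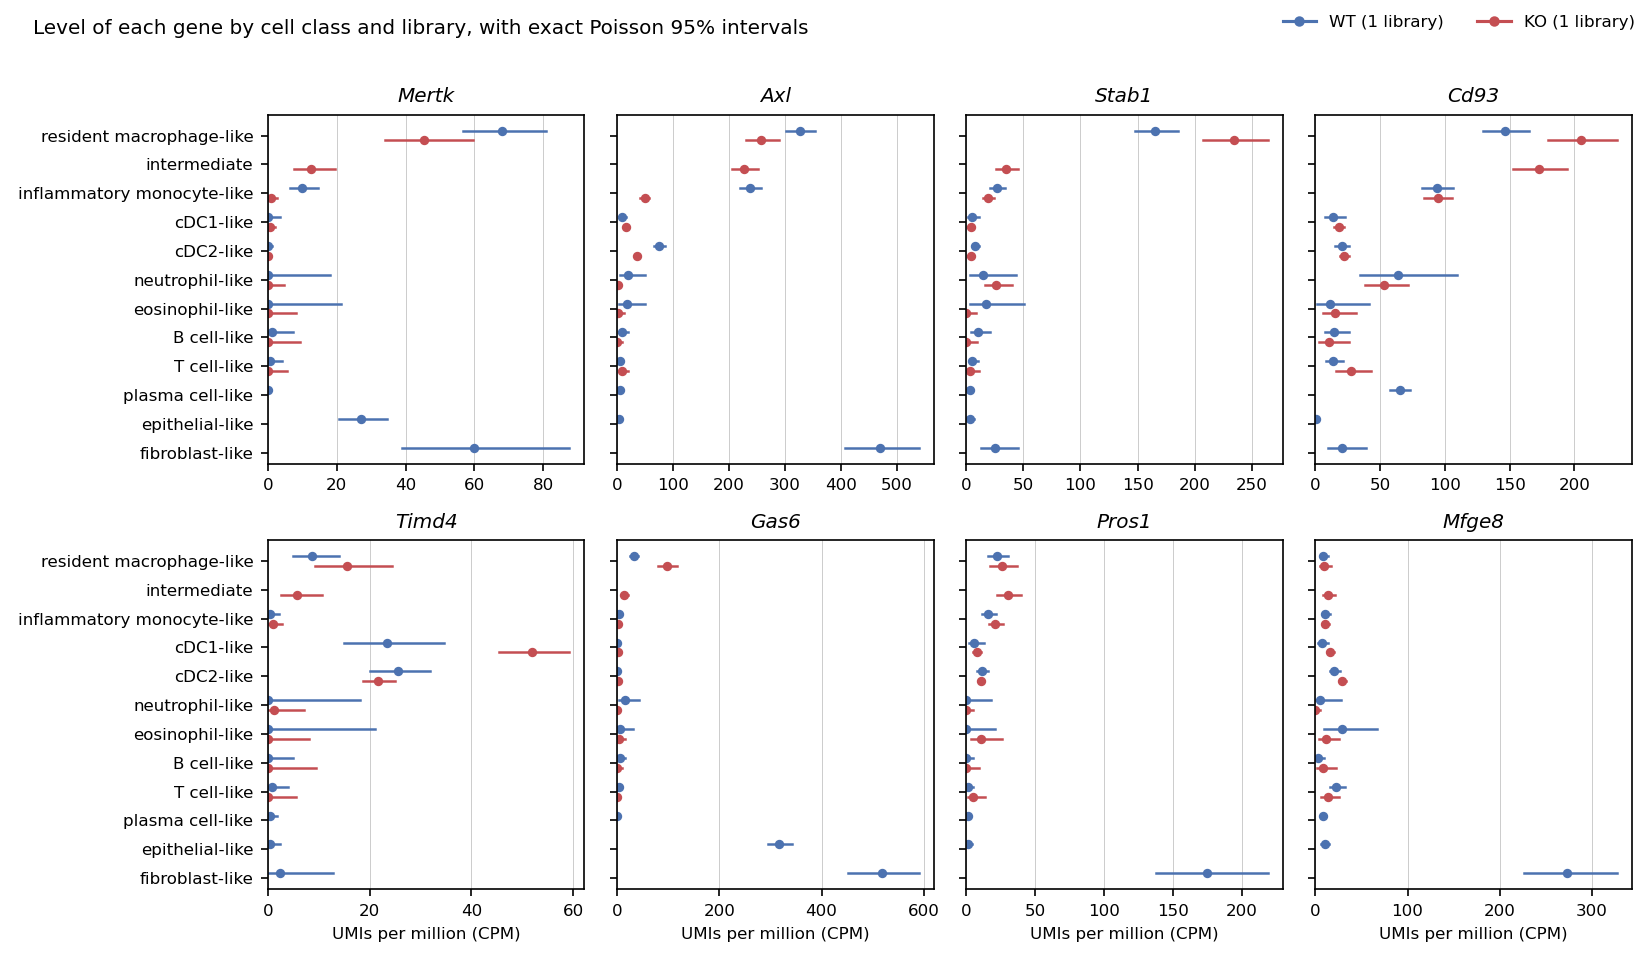
Level of each gene in CPM (linear x axis from 0, its range set per gene) for cell classes with at least 50 cells in a library, WT in blue and KO in red; points are levels of 1 library and bars exact Poisson 95% intervals. Mertk, Stab1 and Cd93 are highest in resident macrophage-like cells or level with them, whereas Gas6, Pros1 and Mfge8 are highest in WT fibroblast-like cells and Timd4 in dendritic cells.

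To ask whether the knockout went with a different level of these genes, KO was set against WT within each class. In resident macrophage-like cells all 8 genes had at least 20 UMIs. Gas6 was at least 2-fold higher in KO (log2 ratio 1.58, 1.12 to 2.06), Timd4 had 0.84 (-0.21 to 1.91) and none was at least 2-fold lower. Of the 8177 genes tested in this class, 3.68% were at least 2-fold higher and 8.27% at least 2-fold lower, and their median was -0.19. Stab1 (0.50, 0.26 to 0.74) and Cd93 (0.48, 0.23 to 0.74) also had intervals above 0. Mertk (-0.58, -1.07 to -0.10) and Axl (-0.34, -0.55 to -0.14) had intervals below 0. Pros1 (0.22) and Mfge8 (0.13) had intervals that included 0, as did Timd4, which rests on 16 and 18 UMIs. The count of genes at least 2-fold higher was thus 1, but it was 2 in 8 alternative settings and 0 in 2, and Timd4 was under 2-fold in only 4 of 13 alternatives (0.27 to 2.37). Read relative to the median of all genes, Mertk was -0.39, Axl -0.15 and Timd4 1.03, and these intervals included 0. Stab1 turned to -0.38 with the intermediate cluster added to the resident class and to -0.60 in separate clusterings of the 2 libraries. In those settings Gas6 had 0.71 and 0.47, and Mertk -1.27 and -1.43.

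Markers of other cells also differed between the 2 resident macrophage-like groups. The 10 plasma cell markers summed to 2148 and 291 CPM, with 1 and 0 of them at 0 in WT and KO, and the 10 epithelial markers to 155 and 44.7 CPM, with 0 and 3 of them at 0. The 8 fibroblast markers summed to 24.3 and 56.7 CPM, with 0 and 1 of them at 0, and the 9 cDC2 markers to 349 and 851 CPM, with none at 0. Free RNA from fibroblast, epithelial and plasma cells, taken at the ratio of Gas6 to marker UMIs in those cells, would bring 5.45 of the 60 WT and 1.63 of the 113 KO Gas6 UMIs. For Mertk it would bring 0.492 of 126 and 0.025 of 53. In monocyte-like cells the same sum would bring 7.31 of the 9 WT and 2.04 of the 8 KO Gas6 UMIs, but 1.32 of the 624 WT and 0.632 of the 156 KO Axl UMIs. The KO estimates rest on 21 fibroblast-like, 16 epithelial-like and 5 plasma cell-like cells. The part of the cDC2 markers in these ratios was not tested. The monocyte marker Ly6c2 had a UMI in 17.1% of WT and 2.26% of KO resident macrophage-like cells.

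In inflammatory monocyte-like cells 6 of the 8 genes had enough UMIs. Axl and Mertk were at least 2-fold lower in KO and none was at least 2-fold higher, beside 9.29% and 3.44% of the 8831 genes tested, whose median was -0.19. Axl had 624 UMIs in WT and 156 in KO, which is 238 and 49.1 CPM, and a log2 ratio of -2.28 (-2.54 to -2.02). Mertk had 26 and 3 UMIs and a ratio of -3.39 (-5.76 to -1.68). The ratios were nearer to 0 at Leiden resolution 0.5, with -1.08 for Axl and -1.17 for Mertk, and with the intermediate cells moved to the monocyte class, with -1.10 and -1.02. The count of genes at least 2-fold lower was 1 in place of 2 in 3 alternative settings. Stab1 (-0.50), Mfge8 (-0.04), Cd93 (0.01) and Pros1 (0.40) had intervals that included 0. Gas6 and Timd4 had 17 and 4 UMIs over both libraries, too few to read. Plasma cell markers summed to 2055 CPM in WT and 332 CPM in KO monocyte-like cells, and epithelial markers to 146 and 24.9 CPM. Fibroblast markers summed to 24.0 and 15.4 CPM and cDC2 markers to 332 and 288 CPM. The free RNA estimate for Axl is given above, and the part of the cDC2 markers in these ratios was not tested.

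The Axl difference was not the same in each monocyte cluster. In the cluster led by Ly6i and Cxcl9, which held most WT cells, Axl stood at 242 CPM for WT and 120 CPM for KO, a ratio of -1.01 (-1.45 to -0.59). In the cluster led by Chil3 and Ace, which held most KO cells, Axl stood at 34.1 CPM for WT and 34.5 CPM for KO, a ratio of 0.02 (-1.03 to 1.27) that rests on 8 WT UMIs. In the small cluster with Rsad2 and Ccl7 the levels were 561 CPM in 17 WT cells and 80.0 CPM in 38 KO cells. Axl was thus low in the Chil3 cluster of both libraries, and the class ratio of -2.28 contains the different shares of these clusters. Cd93 stood at 101 CPM (WT) and 81.9 CPM (KO) in the Ly6i cluster and at 59.7 and 97.5 CPM in the Chil3 cluster. Mertk had 23 and 1 UMIs in the Ly6i cluster, and 1 and 0 in the Chil3 cluster, and the intervals of both cluster ratios included 0 (-7.44 to 0.55 in the Ly6i cluster). C1qa had a UMI in 36.2% of WT and 15.4% of KO cells of the Ly6i cluster, and its part in the Axl ratio was not tested.

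**Figure D2:**
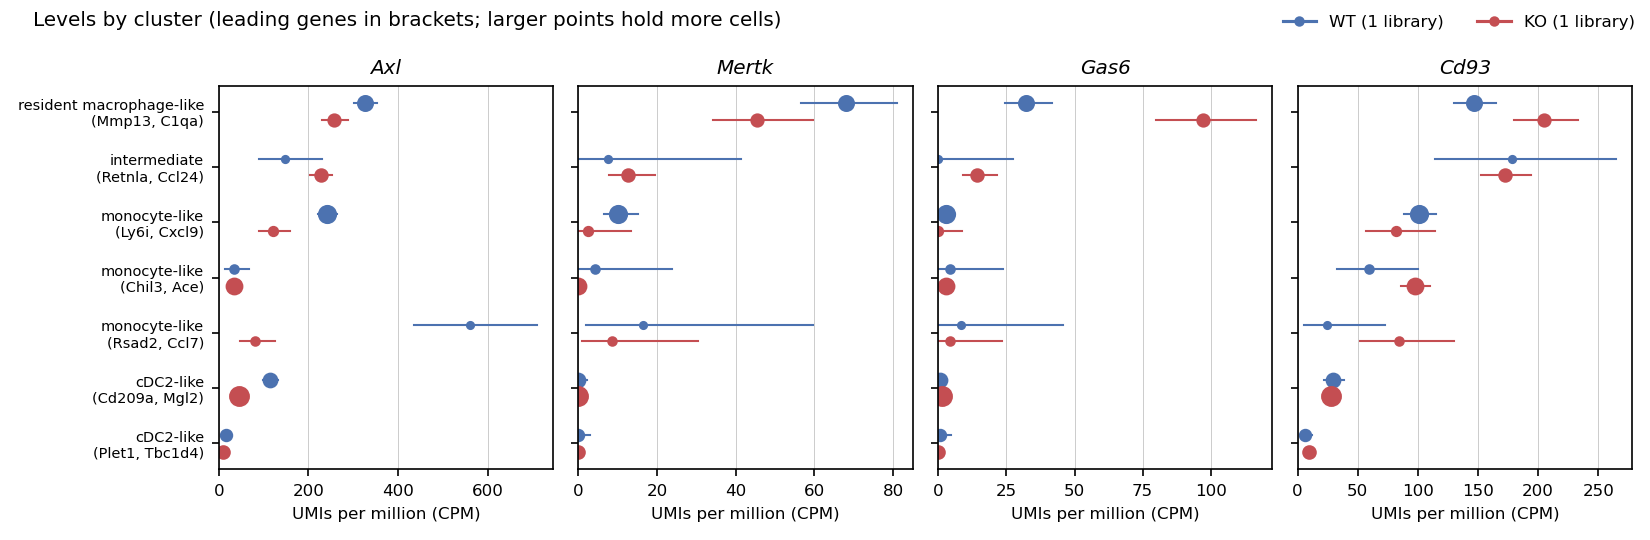
Levels of Axl, Mertk, Gas6 and Cd93 (CPM, linear x axis from 0) in each macrophage, monocyte and cDC2-like cluster, named by 2 of its leading genes; WT is blue, KO is red, larger points hold more cells and bars are exact Poisson 95% intervals. Axl is at 34.1 and 34.5 CPM in the Chil3 cluster of both libraries and at 242 CPM in the WT cells of the Ly6i cluster.

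Over the resident, intermediate and monocyte classes pooled (659 WT and 640 KO cells), 1 of 8 genes, Mertk, was at least 2-fold lower in KO, with a ratio of -1.37 (-1.79 to -0.97). None was at least 2-fold higher. The pool holds different shares of its classes in the 2 libraries (240 WT and 133 KO resident, 18 and 140 intermediate and 401 and 367 monocyte-like cells), which its ratios contain. The shares of all 10295 genes tested were 6.58% lower and 3.82% higher, with a median of -0.18. Axl stood at 271 CPM for WT and 138 CPM for KO, a ratio of -0.98 (-1.10 to -0.85), and was under 2-fold in only 5 of 12 alternative settings (-1.45 to -0.79). Over those settings the count of genes at least 2-fold lower was 1 or 2 and of those higher 0 to 2. Stab1 (-0.33) also had an interval below 0, which included 0 relative to the median gene, whereas Gas6 (0.70) and Cd93 (0.22) had intervals above 0.

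Timd4 and Mfge8 were read mainly in dendritic cells. Among cDC1-like cells (67 WT and 200 KO), 2 of the 6 genes tested were at least 2-fold higher in KO, Timd4 (1.16, 0.55 to 1.83) and Mfge8 (1.19, 0.07 to 2.56), and none was lower, beside 6.17% and 4.51% of the 9073 genes tested. One of the 2 clusters of this class was led by cell cycle genes, with Top2a in 100% of its cells. Its cDC1 label is uncertain, since the cDC2 marker Cd209a had a UMI in 40.0% of its 20 WT and 60.6% of its 94 KO cells. In the other cluster, led by Xcr1, Timd4 stood at 40.3 CPM for WT and 93.3 CPM for KO, a ratio of 1.21 (0.59 to 1.89), and the Mfge8 ratio of 0.51 (-1.33 to 2.95) included 0. Few WT cells carry these ratios, since 5 cells held 20 of the 24 Timd4 UMIs and 6 of the 7 Mfge8 UMIs of WT cDC1-like cells. The Timd4 ratio was under 2-fold in 4 of 12 alternative settings, down to 0.75, and the Mfge8 ratio in 2 of 12, down to 0.40. Axl had 9 WT and 72 KO UMIs in cDC1-like cells and a ratio of 0.93 (-0.07 to 2.12). Its sign was thus opposite to that in macrophage-like and monocyte-like cells, but it ranged from -1.82 to 2.80 over 11 alternative settings. In the Xcr1 cluster the Axl ratio was 2.29 (0.32 to 5.40), from 2 WT and 32 KO UMIs. Fibroblast markers summed to 4.86 CPM in WT (5 UMIs) and 16.0 CPM in KO cDC1-like cells (69 UMIs), and cDC2 markers to 824 and 1168 CPM. Plasma cell markers summed to 1062 and 175 CPM and epithelial markers to 90.4 and 38.3 CPM. The part of these markers in the ratios was not tested.

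In cDC2-like cells (293 WT and 589 KO), Axl was the 1 gene of 6 tested that was at least 2-fold lower in KO (-1.09, -1.35 to -0.83), and none was at least 2-fold higher. Of the 10100 genes tested, 7.13% were lower and 4.32% higher by that fold. The Axl ratio was under 2-fold in 6 of 12 alternative settings, and was nearest to 0 at Leiden resolution 2 (-0.52). In the cluster led by Cd209a and Mgl2 Axl stood at 115 CPM for WT and 46.2 CPM for KO. In the cluster led by Plet1 it stood at 16.7 and 9.67 CPM, and the ratio of -0.79 (-1.70 to 0.15) included 0. Ly6c2 had a UMI in 33.7% of WT and 9.01% of KO cells of the Cd209a cluster, and its part in the Axl ratio was not tested. Plasma cell markers summed to 1320 CPM in WT and 204 CPM in KO cDC2-like cells, and epithelial markers to 202 and 96.4 CPM. Fibroblast markers summed to 5.37 and 12.4 CPM and cDC2 markers to 2041 and 2967 CPM. The part of these markers in the ratios was not tested. Mfge8 had 61 UMIs in WT and 239 in KO cDC2-like cells, a ratio of 0.49 (0.08 to 0.92). The ratio was 0.19 (-0.28 to 0.68) in the Cd209a cluster and 1.16 (0.28 to 2.15) in the Plet1 cluster. Timd4 had 76 UMIs in WT and 180 in KO cDC2-like cells, and its ratio of -0.24 (-0.63 to 0.17) included 0. At 2000 UMIs per cell, 10.9% of WT and 7.08% of KO cDC2-like cells had an Axl UMI, 3.87% and 6.39% a Mfge8 UMI and 3.52% and 4.49% a Timd4 UMI.

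Outside the myeloid and dendritic classes few of the genes could be read. Cd93 had 19 UMIs in WT and 18 in KO T cell-like cells, which is 13.5 and 27.4 CPM, a ratio of 1.02 (0.0053 to 2.03). Of these, 18 WT and 16 KO UMIs lay in the cluster led by Rora, Gata3 and Il22, in which Cd93 was at 175 CPM in 20 WT cells (104 to 277) and at 117 CPM in 22 KO cells (66.6 to 189). This cluster made up 20 of the 240 WT and 22 of the 105 KO T cell-like cells. Over all T cell-like cells Mfge8 had a ratio of -0.73 (-1.98 to 0.37). In neutrophil-like cells Stab1 (0.84) and Cd93 (-0.28) had intervals that included 0.

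**Figure D3:**
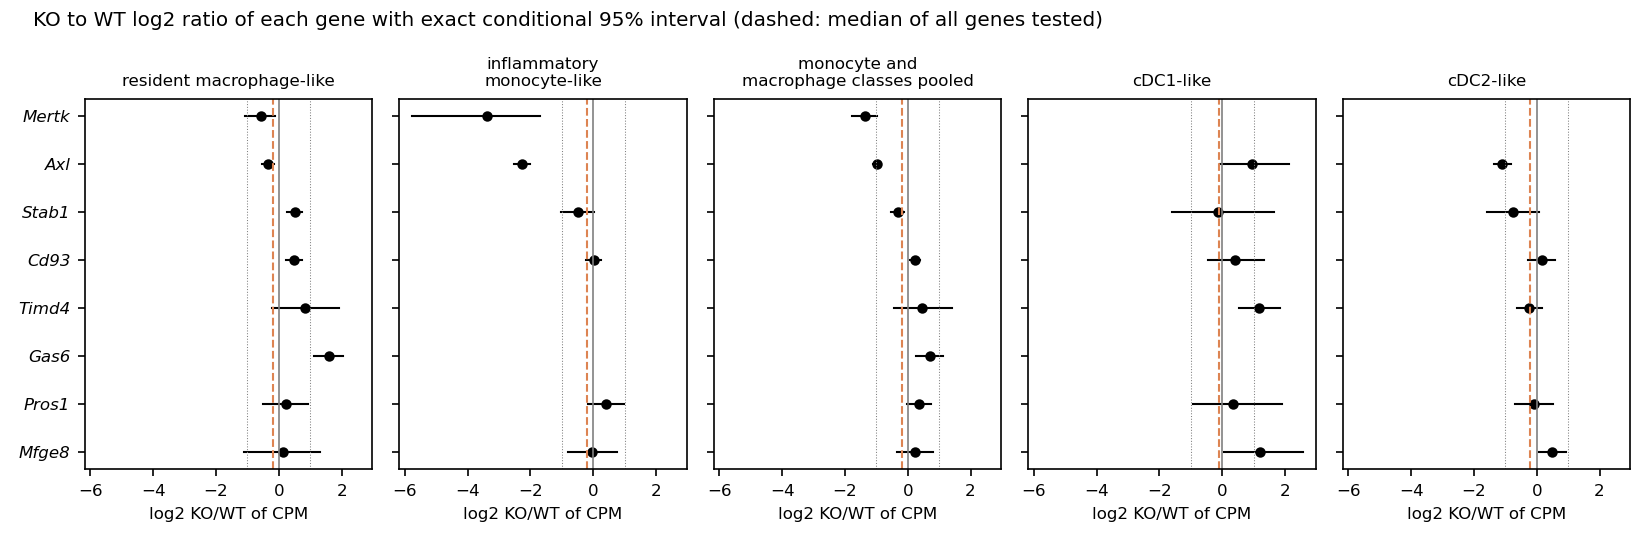
KO to WT log2 ratio of CPM for each gene with at least 20 UMIs in 5 groupings of cells; bars are exact conditional binomial 95% intervals for counting error, dotted lines mark 2-fold and the dashed line is the median of all genes tested. Axl and Mertk lie below 0 in both macrophage and monocyte classes, with Axl at -2.28 in monocyte-like cells, and Gas6 lies at 1.58 in resident macrophage-like cells.

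**Figure D4:**
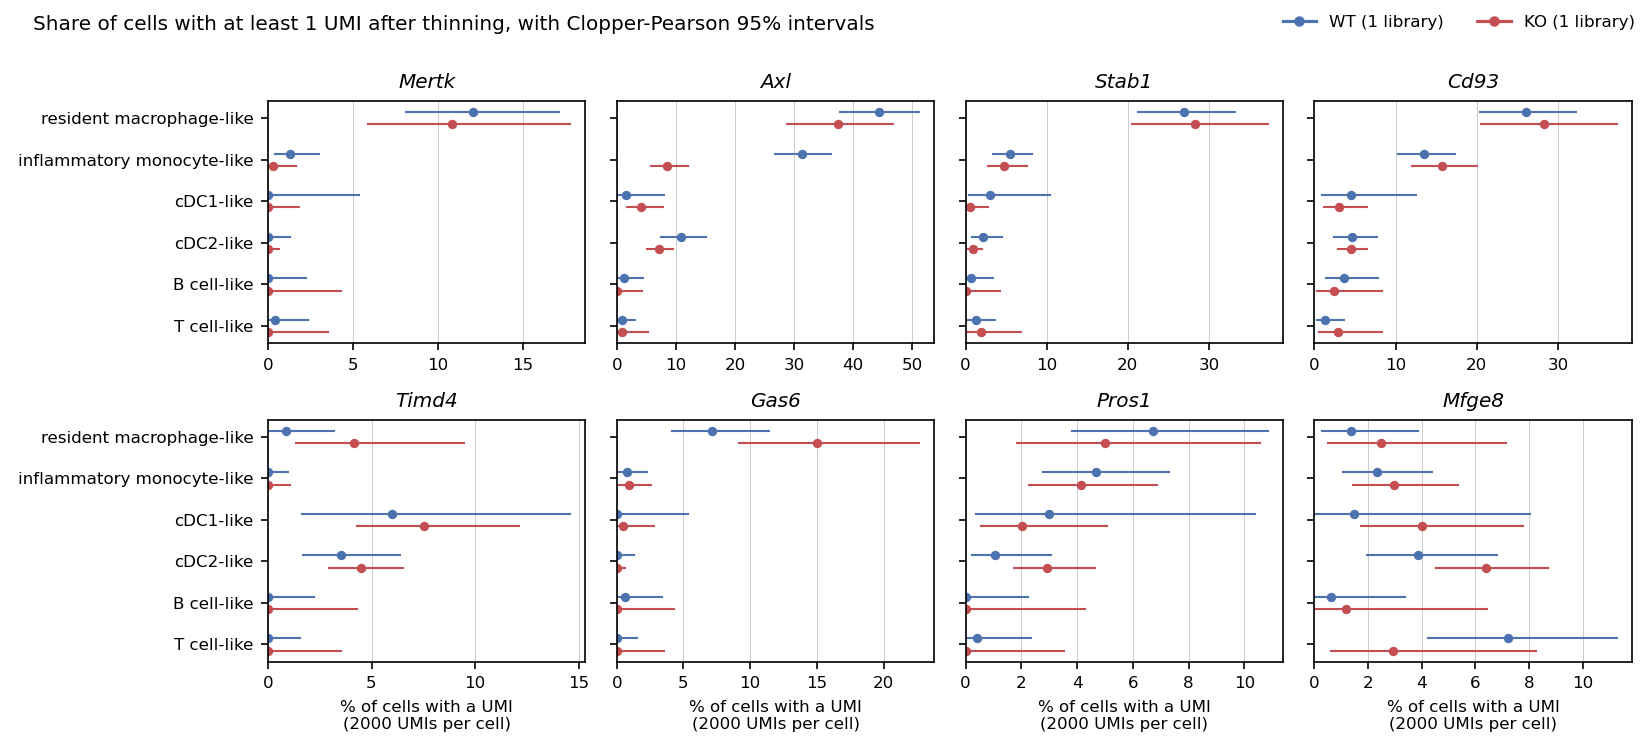
Percentage of cells with at least 1 UMI of each gene after each cell was thinned to 2000 UMIs (linear x axis from 0, its range set per gene), WT in blue and KO in red, with Clopper-Pearson 95% intervals; B cell-like cells show the background, and T cell-like cells are shown beside them. The Axl share of monocyte-like cells, 31.4% in WT and 8.58% in KO, is the clearest separation between the libraries.

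Detection of several of the genes in 1 cell was examined at 2000 UMIs per cell. At least 1 of the 8 genes was found in 78.5% of 223 WT and 75.8% of 120 KO resident macrophage-like cells, and at least 2 in 35.0% and 40.8%. In monocyte-like cells at least 1 was found in 48.6% of WT and 34.02% of KO cells and at least 2 in 9.87% and 2.96%. B cell-like cells gave 6.13% and 3.57% for at least 1. For the pairs given here, the intervals of the shares with and without the partner overlapped. Among WT resident macrophage-like cells, 6.06% of cells with an Axl UMI and 8.06% of cells without had a Gas6 UMI, and in KO the shares were 8.89% and 18.7%. Of the 27 WT cells with a Mertk UMI, 33.3% had an Axl UMI, against 45.9% of the cells without. Of the cells with a Stab1 UMI, 25.0% in WT and 35.3% in KO had a Cd93 UMI, against 26.4% and 25.6% of the cells without.

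The genes with the most similar pattern were sought over 16 profiles, the 8 classes that held 50 or more cells per library, by Pearson's r of log2(CPM + 10). These profiles share libraries and depth, so r is a description. Fibroblast-like, epithelial-like, plasma cell-like and intermediate cells were not among the 8 classes. Gas6, Pros1 and Mfge8 were highest in fibroblast-like cells of the WT library, so r does not cover the cells richest in them. Outside the resident macrophage-like and monocyte-like classes Mertk was at most 1.32 CPM in these profiles, so its r rests mainly on the resident macrophage-like cells. Among the 8 genes, r was highest between Stab1 and Mertk (0.91) and lowest between Cd93 and Mfge8 (-0.30). Axl and Mertk gave 0.81, Gas6 and Mertk 0.84 and Gas6 and Axl 0.64. Of 11113 genes, Mertk was most like Bmp5, Tmem37 and Gbp2b (0.99, 0.98 and 0.98), and Axl most like Serping1, Pltp and Scamp1 (0.94 each). Stab1 was most like P2ry12, Ms4a7 and Plau (0.95, 0.95 and 0.94) and Cd93 most like Selenop, Cxcl1 and Atp2b1 (0.94, 0.94 and 0.93). Timd4 was most like Ust, Gpr4 and B4galt4 (0.95, 0.94 and 0.94). Gas6 was most like Pmp22, Kitl and Trim47 (0.93 each), Pros1 like Cln8, Eif4e and Dnase1l1 (0.97, 0.93 and 0.93), and Mfge8 like Slc52a3, Trdmt1 and Uap1 (0.85, 0.83 and 0.81).

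The other genes of the pathway were read from a list of 49 genes in 5 groups. In the pooled monocyte and macrophage classes 40 of them had at least 20 UMIs. Cd36, Anxa1 and S1pr1 were at least 2-fold higher in KO and Cd300lf, Scarf1 and Nr1h3 at least 2-fold lower, and the list median was -0.01 beside -0.18 for all genes. The pool holds 18 WT and 140 KO intermediate cells, and its value can differ from those of its classes. In resident macrophage-like cells 3 of 39 were at least 2-fold higher (Cd36, Trem2 and S1pr1) and 5 lower (Cd300lf, Thbs1, Pltp, Elmo2 and Nr1h3), with a list median of -0.14. In monocyte-like cells 2 of 40 were higher (Cd36 and Anxa1) and 7 lower, with a list median of -0.08. These shares stand beside the percentages of all genes given for each class above.

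Among the other uptake receptors, the scavenger receptor gene Cd36 stood at 53.3 CPM for WT and 161 CPM for KO, a ratio of 1.60 (1.39 to 1.80). Trem2, a lipid-sensing receptor, had 0.78. Itgb5, a partner of the alpha v integrin, had -0.75, made up of -0.08 (-0.33 to 0.17) in resident macrophage-like and -0.999 in monocyte-like cells, and Cd300lf, a phosphatidylserine-binding receptor, -1.39 (-1.63 to -1.16). Among other bridging and soluble proteins, Anxa1, encoding annexin A1, stood at 73.3 and 235 CPM, a ratio of 1.68 (1.51 to 1.86), with 0.41 (-0.09 to 0.90) in resident macrophage-like and 1.67 in monocyte-like cells. Lgals3 had 0.74, with 0.03 and 0.68 in these classes. Pltp, the phospholipid transfer protein, had -0.92, with -1.19 (-1.43 to -0.95) and -1.81 (-2.12 to -1.52) in these classes. Thbs1, which encodes thrombospondin-1, had 0.05, with -2.03 in resident macrophage-like and 0.24 (0.17 to 0.30) in monocyte-like cells.

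Among genes of engulfment and cargo handling, Nr1h3 was lowest. It encodes LXR alpha, a sterol-activated nuclear receptor, and stood at 52.7 CPM for WT and 10.3 CPM for KO, a ratio of -2.36 (-2.79 to -1.95). Abca1, a cholesterol exporter, had -0.77. Dock1 had 0.25 (-0.12 to 0.63), an interval that included 0, and Abca7 0.38 (0.10 to 0.66). Among brakes and find-me receptors, S1pr1 (1.13) and P2ry2 (0.48, -0.13 to 1.12) were highest and Sirpa (-0.54) and P2ry12 (-0.88) lowest. P2ry2 had -0.25 in resident macrophage-like and -0.20 in monocyte-like cells, whose intervals also included 0. S1pr1 had 2.07 (1.03 to 3.22) and 0.72 (-0.25 to 1.76) in these classes, and P2ry12 -0.18 (-0.82 to 0.44) and -1.34 (-2.52 to -0.25). In the group around the TAM receptors, Socs3 (-0.01) and the sheddase gene Adam17 (-0.10) were highest, and Vkorc1 (-0.29), of the vitamin K cycle, and Socs1 (-0.69), a cytokine signalling inhibitor, were lowest. The intervals of Socs3, Adam17 and Vkorc1 included 0. Socs1 had 0.10 in resident macrophage-like and -1.11 in monocyte-like cells.

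**Figure D5:**
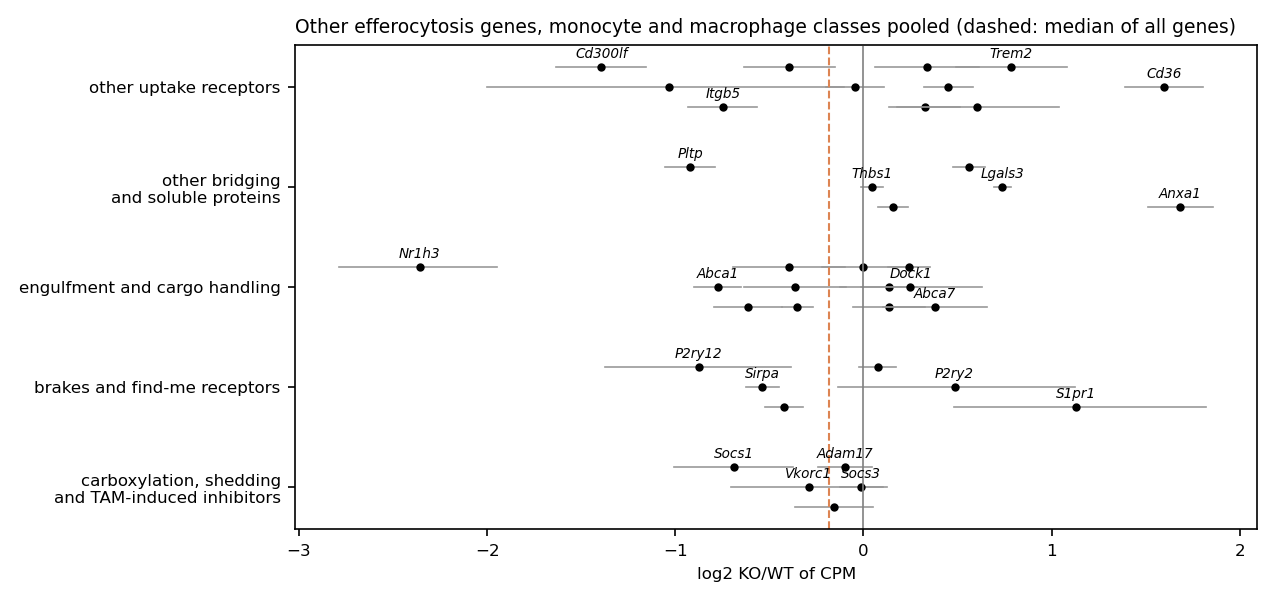
KO to WT log2 ratio of 40 other efferocytosis genes in the pooled monocyte and macrophage classes, by group, with exact conditional 95% intervals; the dashed line is the median of all genes, -0.18, and the names are the 2 highest and 2 lowest genes per group with at least 50 UMIs. Nr1h3 lies lowest at -2.36 and Anxa1 highest at 1.68.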

How the data were processed

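Colon lamina propria cells of 1 WT and 1 KO library were profiled with the 10x Genomics 3' kit, version V3. The authors deposited raw counts of UMIs for each gene and barcode, made with Cell Ranger 3.0.2 per the file headers. The submitters' processing notes name mm10 and Seurat 4. The deposited libraries held 3185 WT barcodes with 22191774 UMIs and 3020 KO barcodes with 23384895 UMIs. The study states more cells than these barcodes for both genotypes, several times as many for WT and slightly more for KO, and the reason is not known here.

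Barcodes with 200 to 6000 detected genes and no more than 15% mitochondrial UMIs were kept, the filter of the study, which took out 18.5% and 16.8%. The study's own clustering method (DESC) was not applied. After scaling to 10000 UMIs and log transformation, 2000 variable genes (cell_ranger flavour), from which the 8 genes and the pathway list were barred, entered 30 principal components, a graph of 15 neighbours and Leiden clustering of the joined libraries, resolution 1 (scanpy 1.11.5, leidenalg 0.10.2, scikit-learn 1.9.0, scipy 1.17.1, Python 3.11.15). Clusters were named from marker lists. A marker counted as raised when it was at least 2-fold above the rest of the cells, after adding 10 CPM to each, and had a UMI in 10% of the cluster. The class with the greatest proportion of raised markers, and no fewer than 3, gave the name, unless another class had more markers among the top 10 genes. Some steps were set after a first clustering was seen. The flavour was changed because the first choice mixed cDC1 and Cd209a cells. A cluster whose median UMIs were under the library median divided by 3 was left without a name if fewer than 2 of its class markers were in the top 10. Equal numbers, as well as equal shares, of macrophage and monocyte markers gave the name intermediate. The members, markers and pathway list were chosen with earlier results of these data known. Named genes were the 8 members, the 2 highest and 2 lowest pathway genes per group in the pooled classes with at least 50 UMIs, and the 3 genes most like each member with at least 100 UMIs. Scarf1 and Elmo2 were named after their values were seen.

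For each class and library the UMIs were added up and divided by all UMIs of the class. Ratios were read where both libraries had 50 cells or more of a class, for genes with at least 20 UMIs. For shares, cells were thinned to 2000 UMIs and shallower cells left out, 17 WT and 13 KO resident macrophage-like and 16 WT and 29 KO monocyte-like cells. Doublets were not removed. Scrublet called 1 WT and 9 KO cells, 0.0385% and 0.358%, too few for a working caller, and the cells with the top 3% of scores were left out in an alternative. The code for ratio intervals was tested on simulated counts. Other alternatives changed the resolution, filters, variable genes, class assignment, scaling and minimum UMIs.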

Additional observations from a re-analysis of the deposited data

How the results depend on the processing

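No paired analysis was possible because each genotype has 1 library, and no replicate could be left out. Of 418 alternative values of the ratios, 367 stayed within the counting interval of the main value and 51 did not. The sign changed in 34, of which 31 belong to ratios whose own interval included 0 and 3 to Stab1. Axl was lower in KO in 13 of 13 alternatives in resident macrophage-like and in 13 of 13 in monocyte-like cells, Mertk in 13 of 13 and in 12 of 12, and Gas6 was higher in 13 of 13 in resident macrophage-like cells. These counts concern the sign only. In resident macrophage-like cells the Axl interval included 0 with the stricter cell filter (-0.12, -0.33 to 0.09). Relative to the median gene, the intervals of Axl (-0.15) and Mertk (-0.39) in these cells included 0. Stab1 in resident macrophage-like cells turned to -0.60 with each library clustered alone and to -0.38 with the intermediate cluster counted as resident, and in the pooled classes to 0.0093 at resolution 2. The cause was not tested. With each library clustered alone, 299 rather than 133 KO cells were resident macrophage-like.

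The values that moved in resident macrophage-like cells were these. With each library clustered alone Mertk was -1.43, Axl -0.57 and Gas6 0.47, and with the intermediate cells added to the resident class Mertk was -1.27 and Gas6 0.71. With the stricter cell filter (500 genes, 10% mitochondrial UMIs) Axl was -0.12, Stab1 0.93, Timd4 2.37 and Cd93 0.79. With 4000 variable genes Gas6 was 1.05, Stab1 0.057 and Cd93 0.87, with classes by highest marker score Stab1 was 0.24 and Timd4 2.01, and with every barcode Cd93 was 0.79. The count of genes at least 2-fold higher was 2 in place of 1 at resolution 2, with the stricter filter, every barcode, 4000 variable genes, the 8 genes allowed among the variable genes, highest marker scores, ratios relative to the median gene and the top 3% of Scrublet scores removed. It was 0, with 1 gene at least 2-fold lower, when libraries were clustered alone and when the intermediate cluster was counted as resident.

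In monocyte-like cells at resolution 0.5 Mertk was -1.17, Axl -1.08 and Cd93 0.32. With the intermediate cluster counted as monocyte they were -1.02, -1.10 and 0.30. Axl was -1.52 with highest marker scores and -2.60 without the 5 cells with most UMIs, and Cd93 was 0.83 with 4000 variable genes. The count of genes at least 2-fold lower was 1 in place of 2 with 4000 variable genes, highest marker scores and the 5 cells left out. Both places of the intermediate cluster, the 5 cells left out and immunoglobulin genes left out of the totals were chosen after seeing the data. Depth limits Timd4 and Mfge8 in resident macrophage-like and Mertk and Gas6 in monocyte-like cells, whose ratios have wide intervals or could not be read.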

Other observations

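Classes with fewer than 50 cells in a library are given as values. KO fibroblast-like cells (21 cells) had 480 CPM of Axl, 325 CPM of Gas6, 132 CPM of Pros1 and 198 CPM of Mfge8, against 469, 518, 175 and 274 CPM in 79 WT cells. KO epithelial-like cells (16 cells) had 263 CPM of Gas6, and 23 of their 36 Gas6 UMIs came from 1 cell. Mature DC-like cells had 62.5 CPM of Axl in 19 WT and 50.4 CPM in 43 KO cells, and 43.7 and 39.7 CPM of Mfge8. No Axl or Stab1 UMI was found in NK cell-like cells, 27 WT and 42 KO.

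The 2 unnamed clusters also carried these genes. The cluster led by Lgmn and Mmp14 held 198 WT and 24 KO cells at a median of 1793.5 and 1338.5 UMIs. Its WT cells had 181 CPM of Axl (145 to 224), 116 CPM of Cd93 (87.4 to 151) and 42.2 CPM of Stab1, and its KO cells held 2, 3 and 2 UMIs of these genes. The cluster led by Gm26917 and Gm42418 held 177 WT and 77 KO cells at a median of 858 and 805 UMIs. Its WT cells had 124 CPM of Axl and 61.9 CPM of Cd93, and its KO cells held 3 Axl and 0 Cd93 UMIs. With 3 raised macrophage markers, C1qa, Apoe and Cx3cr1, this cluster was the one left unnamed for its depth.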
